A study of Mus musculus with 8 samples.

Results

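The sequences described here are the small RNA sequences of the miR-23, miR-27 and miR-24 families, which mouse cells make from a pair of clustered genes. They were chosen by name: every distinct sequence in the deposited table whose miRNA hit is an arm of miR-23a, miR-23b, miR-27a, miR-27b or miR-24. This gave 8 of 11568 distinct sequences, and 8 of the 652 that hit a mature miRNA. They belong to 5 arms: mmu-miR-27b-3p (1 sequence), mmu-miR-27b-5p (2), mmu-miR-23b-3p (1), mmu-miR-24-3p (3) and mmu-miR-27a-3p (1). No other arm of these miRNAs had a listed sequence under this rule, which does not show that it is absent from the cells. A further 20 listed sequences fall outside the name rule but derive from these arms by their letters: 5 with a hit to the hairpin only, 12 that are a member with 1 to 3 bases added at the 3′ end, and 3 that are 1 substitution away from a member. They are called related sequences below.

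All 8 libraries came from MIN6B1, a mouse insulinoma line used as a model of the pancreatic beta cell, so every group shares its tumour origin and its transfection with Lipofectamine 2000. The cells received a CTRL plasmid or one expressing HENMT1ΔC-T6B, a methyltransferase, and total RNA was then left non-oxidized or was oxidized, giving 4 groups of 2 libraries. As background, HENMT1 is the enzyme that places a methyl group on the 2′ oxygen of the last base of piRNAs, and T6B is a fragment of TNRC6B that binds Argonaute proteins. A 3′ end that carries this methyl group resists periodate, while a free 3′ end is oxidized and can no longer be ligated to an adapter. The comparison thus asks which small RNAs were held by Argonaute where the enzyme was present. The labels do not say whether replicate libraries came from separate cultures, so the p-values measure the spread between these libraries, which may be technical. Transfected and untransfected cells were not separated, and fewer cells with a sequence and less of it per cell cannot be told apart in such RNA.

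A cluster of this kind is transcribed as a single primary RNA, from which Drosha and Dicer cut 3 hairpins and then a duplex from each. One strand of each duplex stays in Argonaute and the other is usually discarded. The seed, bases 2 to 8, decides most of the pairing with target messages. miR-27 is known for repressing the adipocyte regulator PPARγ and genes of lipid metabolism, miR-23 for repressing mitochondrial glutaminase, and miR-24 has been linked to insulin gene expression in beta cells.

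In RefSeq (GRCm38.p6) the larger cluster lies on the plus strand of chromosome 13 and spans 792 bases, with Mir23b at chr13:63300484-63300557, Mir27b at chr13:63300712-63300784 and Mir24-1 at chr13:63301208-63301275. All 3 hairpins lie inside the protein-coding gene 2010111I01Rik on the same strand. Mir27b and Mir24-1 overlap an annotated exon of it, and Mir23b lies in an intron. Fancc runs across the cluster on the opposite strand with no exon there. The second cluster lies on the plus strand of chromosome 8 and spans 404 bases, with Mir23a at chr8:84208518-84208592, Mir27a at chr8:84208672-84208758 and Mir24-2 at chr8:84208815-84208921. Gm26532, a long non-coding RNA, overlaps Mir24-2.

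The member sequences are printed as the table gives them, as DNA and 5′ to 3′, with the seed in capitals, because the results turn on their shared seeds and on their 3′ ends. RefSeq lists mature sequences for 4 of the 5 arms, and 4 of the 8 members equal the RefSeq mature sequence: the 3′ arms of miR-27b and miR-27a, the 22-nucleotide miR-27b-5p and the 22-nucleotide miR-24-3p.
miR-27b-3p, 21 nt: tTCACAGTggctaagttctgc
miR-27a-3p, 21 nt: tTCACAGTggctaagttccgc
miR-23b-3p, 21 nt: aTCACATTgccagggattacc
miR-24-3p, 20 nt: tGGCTCAGttcagcaggaac
miR-24-3p, 21 nt: tGGCTCAGttcagcaggaaca
miR-24-3p, 22 nt: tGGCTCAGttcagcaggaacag
miR-27b-5p, 20 nt: aGAGCTTAgctgattggtga
miR-27b-5p, 22 nt: aGAGCTTAgctgattggtgaac

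The 3′ arms of miR-27b and miR-27a share the seed TCACAGT and differ by T19C, counted from the 5′ end with the miR-27b base first. The miR-27b-3p read lies at chr13:63300760-63300780, that of miR-27a-3p at chr8:84208727-84208747 and that of miR-23b-3p at chr13:63300529-63300549. The 22-nucleotide miR-27b-5p lies at chr13:63300718-63300739. The 22-nucleotide miR-24-3p matches Mir24-1 (chr13:63301251-63301272) and Mir24-2 (chr8:84208875-84208896) alike, so its counts cannot be assigned to a cluster.

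The related sequences on which the end results rest are printed in the same way, with the added or changed bases in capitals.
miR-24-3p with T: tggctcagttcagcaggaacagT
miR-24-3p with TT: tggctcagttcagcaggaacagTT
miR-24-3p with C: tggctcagttcagcaggaacagC
miR-23b-3p with A: atcacattgccagggattaccA
miR-23b-3p with ACT: atcacattgccagggattaccACT
miR-27b-3p with C21T: ttcacagtggctaagttctgT
miR-27b-5p, 23 nt: agagcttagctgattggtgaacA
miR-27b-5p, 25 nt: agagcttagctgattggtgaacAGT

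The hairpins continue with GAG after the 22-nucleotide miR-24-3p, so none of the bases T, TT and C is encoded there, and the table lists 0 genomic matches for these 3 sequences. After miR-23b-3p the hairpin continues with ACG, so A and AC are encoded and the final T of ACT is not. The 2 longer miR-27b-5p sequences are encoded throughout. The sequence with C21T has the letters of a form 1 base shorter with an added T, and these origins cannot be told apart.

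The listed counts summed to between 295094 and 6641250 per library, and those of mature miRNAs to between 10115 and 4377659, the low ends both in oxidized control RNA. No listed sequence has fewer than 2 counts in an oxidized methyltransferase library or fewer than 10 in both together, while in each other group some have 0. The list thus rests on those 2 libraries, and forms lost from them are not among the sequences described. Of the beta cell markers, 3 of 3 were listed (miR-375-3p, miR-7a-5p and miR-7b-5p), and their summed share of mature counts was 28.2% and 27.6% in the non-oxidized control, 30.4% and 37.5% in the oxidized control, 21.7% and 20.4% in the non-oxidized methyltransferase and 11.6% and 13.5% in the oxidized methyltransferase libraries. Of 5 blood, 4 mesenchyme and 3 muscle markers 0 were listed, and the listed endothelium (1 of 2) and hepatocyte (1 of 1) markers held at most 0.00951% and 0.0395%.

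The summed counts of the 8 members were 1689 and 2675 in the non-oxidized control libraries, 9 and 11 in the oxidized control libraries, 1316 and 1124 in the non-oxidized methyltransferase libraries and 493 and 441 in the oxidized methyltransferase libraries. In counts they were thus nearly lost on oxidation of control RNA, where the mature totals also fell, and partly kept on oxidation of methyltransferase RNA. As a share of mature counts the 8 members held 0.0480% and 0.0611% in non-oxidized control RNA. With the related sequences added, the counts there equalled 0.404% and 0.366% of mature counts. The members' share thus leaves out most listed counts of the family in these libraries, and does not measure its abundance in the line. All 8 members had counts in every non-oxidized library. That they also had counts in both oxidized methyltransferase libraries follows from the listing. In oxidized control RNA 4 had a count in the first library and 1 in the second, at mature totals of only 13772 and 10115. Ligation efficiency can differ between sequences and was not tested, so comparisons of different sequences rest on how their ratio changes between groups. Shares of an arm, and counts set side by side, describe listed counts and not amounts of RNA.

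**Figure D1:**
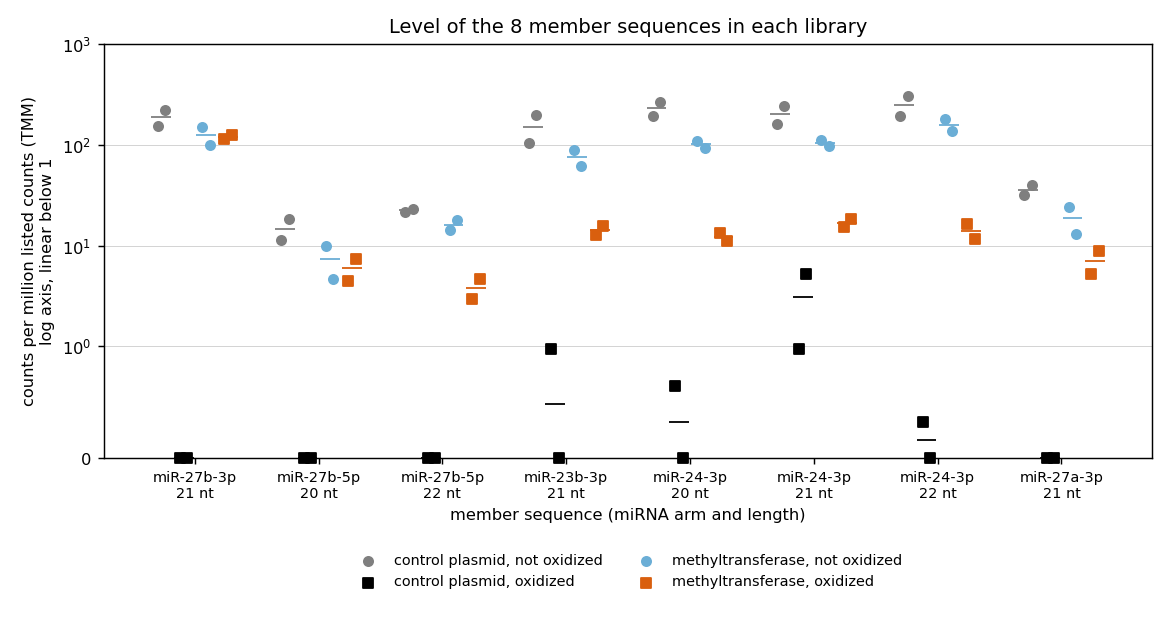
Level of each member in each library, in CPM, counts per 1000000 listed counts, after TMM scaling (log axis, linear below 1); points are libraries and short lines are means of 2. Oxidized control libraries lie below 1 CPM for all 8 members except the 21-nucleotide miR-24-3p in the second library (5.17), and oxidized methyltransferase libraries lie above them for each member; miR-27b-3p alone among the 3′ arms has oxidized and non-oxidized methyltransferase libraries at the same height.

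Oxidation of RNA from control cells lowered the members under TMM scaling. miR-27b-3p had 296 and 453 counts without oxidation and 0 and 0 with it, at least 157.3-fold lower under TMM scaling with each oxidized control library set to a floor of 3 counts (edgeR adjusted p = 1.18e-06). miR-27a-3p went from 62 and 81 counts to 0 and 0, at least 30.1-fold lower, and the 20- and 22-nucleotide miR-27b-5p went from 22 and 37 and from 42 and 47 counts to 0 and 0, bounds of 12.4-fold and 18.8-fold. miR-23b-3p had 203 and 403 counts without oxidation and 3 and 0 with it. The groups did not overlap for any of these sequences, but the share of all sequences without overlap was not counted.

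The 3 miR-24-3p members had 375 and 546, 315 and 490, and 374 and 618 counts without oxidation, by rising length, and 2 and 0, 3 and 11, and 1 and 0 with it. The 21-nucleotide form was thus the only member with more than 3 counts in an oxidized control library, and it fell by 6.10 ± 0.69 (SE) on the log2 scale (edgeR adjusted p = 1.37e-05), or by 5.31 without the first and 7.63 without the second oxidized control library. All 8 members were called lower, that is, at a Benjamini-Hochberg adjusted p under 0.05 over 9851 tested sequences. In a fit of miRNA sequences only 3 were called lower, and the 21-nucleotide miR-24-3p was at 0.11 (adjusted p = 0.860). This is also what most miRNA sequences did: 92.8% of 607 tested mature sequences and 46.4% of all sequences were called lower, against 0.165% and 18.4% called higher. The median fitted log2 change was -8.86 over the members, or -6.70 with those at 0 set to their bound, and -8.69 over mature sequences. As a share of mature counts the 8 members together did not fall. They held 0.0480% and 0.0611% before oxidation and 0.0653% and 0.109% after it, on 9 and 11 counts. Oxidized methyltransferase libraries held less, 0.0241% and 0.0268%. As a share of all listed counts they fell, from 0.0314% and 0.0403% to 0.00205% and 0.00373% in control RNA. For members at 0 the share of mature counts could not be measured. A floor of 3 counts is 0.0218% and 0.0297% of mature counts in the oxidized control libraries. That is above the 0.00842% and 0.0103% that miR-27b-3p held before oxidation.

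Under TMM scaling, oxidized methyltransferase RNA held more of every member than oxidized control RNA. miR-27b-3p had 304 and 273 counts against 0 and 0, at least 100.4-fold higher (edgeR adjusted p = 3.25e-06). Its paralog miR-27a-3p had 14 and 19 counts against 0 and 0, at least 5.87-fold higher (edgeR adjusted p = 0.000453). The passenger strand miR-27b-5p had 12 and 16 counts in its 20-nucleotide form and 8 and 10 in its 22-nucleotide form against 0 and 0, bounds of 4.98-fold and 3.19-fold. These bounds come from TMM scaling and share the floor of 3 counts, so they do not rank the sequences. No library of 1 group overlapped the other for any of them, which the listing and the counts of 0 fix in advance.

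miR-23b-3p had 34 and 34 counts against 3 and 0, a TMM-scaled count ratio of 24.3 (exact 95% counting interval 7.99 to 121, edgeR adjusted p = 0.000546). This interval and those that follow take the scaling as fixed. As a share of mature counts miR-23b-3p held 0.00166% and 0.00207% against 0.0218% and 0. Of all listed counts it held 0.00110% and 0.00139% against 0.000684% and 0. The 20-nucleotide miR-24-3p had 36 and 24 counts against 2 and 0, a TMM-scaled ratio of 32.2 (8.54 to 272). Its 22-nucleotide form had 44 and 25 against 1 and 0, a TMM-scaled ratio of 74.1 (12.9 to 2969). Since 1 oxidized control library held all their counts there, the fitted log2 difference ranged, with 1 oxidized control library left out, from 3.75 to 7.91 for miR-23b-3p, from 4.09 to 7.70 for the 20-nucleotide and from 5.17 to 7.89 for the 22-nucleotide miR-24-3p. The 21-nucleotide miR-24-3p had 41 and 40 counts against 3 and 11 and a log2 difference of 2.52 ± 0.64 (SE; edgeR adjusted p = 0.00597), which was 1.68 without the first oxidized control library, 4.00 without the second, -0.49 when libraries were scaled by total counts, and -1.58 (adjusted p = 0.0489) with miRNA sequences only, a called difference in the other direction.

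All 8 members were called higher in this comparison, against 85.3% of tested mature sequences and 42.3% of all sequences (0.165% and 3.92% lower). No listed sequence has fewer than 2 counts in an oxidized methyltransferase library, while oxidized control libraries may hold 0. The listing thus favours calls of higher, for the members and for these background shares alike. The members' median fitted log2 difference of 5.98 (3.54 with bounds) stood beside 6.49 for all mature sequences. Scaling by total counts, which moves the median of all sequences by -2.99, called 5 of the 8 higher, and a fit of miRNA sequences only called 1. In the authors' deposited table the oxidized methyltransferase libraries were higher in 46.2% of all listed sequences, and its signed fold for oxidized control over oxidized methyltransferase RNA was -1950 for miR-27b-3p (adjusted p = 3.958e-11).

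Before oxidation the methyltransferase made no called difference. miR-27b-3p had 290 and 212 counts in methyltransferase libraries against 296 and 453 in control libraries. The log2 differences of the 8 members lay between -1.19 and -0.48, with a median of -0.94 against -0.63 for mature sequences, so all 8 were below 0. That sign follows the scaling: the 22-nucleotide miR-27b-5p was at 0.030 with total counts, and it (0.22), miR-27b-3p (0.13) and the 22-nucleotide miR-24-3p (0.073) were above 0 with miRNA sequences only. By edgeR 0 of 8 were called, against 0% of all sequences and 0% of mature sequences in either direction. An unadjusted edgeR p under 0.05 was found for 1 of 8, beside 139 of 607 mature sequences and 858 of all 9851 tested. The most abundant related sequence, miR-24-3p with T, had 10922 and 11057 counts in control and 4170 and 4236 in methyltransferase libraries, a log2 difference of -1.41 ± 0.37 (SE; edgeR adjusted p = 0.299).

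Within methyltransferase RNA, the members differed in how much of them remained after oxidation. miR-27b-3p had 290 and 212 counts before and 304 and 273 after oxidation, or 152 and 99.3 against 113 and 126 CPM, and its log2 change was -0.07 ± 0.42 (SE; edgeR adjusted p = 0.940). miR-23b-3p, from the neighbouring hairpin, had 168 and 133 counts before and 34 and 34 after, and fell by 2.40 ± 0.57 (adjusted p = 0.0162). miR-24-3p fell by 3.04 ± 0.50 in its 20-nucleotide, 2.63 ± 0.57 in its 21-nucleotide and 3.50 ± 0.49 in its 22-nucleotide form (adjusted p = 0.00173, 0.00930 and 0.000590), from 208 and 200, 214 and 209, and 344 and 294 counts to 36 and 24, 41 and 40, and 44 and 25. The libraries before and after oxidation overlapped for miR-27b-3p only in this set of 5 sequences. How many of all sequences overlapped was not counted.

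miR-27a-3p, which differs from miR-27b-3p at a single base outside the seed, had 46 and 28 counts before and 14 and 19 after (log2 -1.41 ± 0.57, edgeR adjusted p = 0.148). The 20-nucleotide miR-27b-5p had 19 and 10 counts before and 12 and 16 after (-0.30 ± 0.66, adjusted p = 0.816), and the 22-nucleotide form 27 and 38 before and 8 and 10 after (-2.07 ± 0.57, adjusted p = 0.0374). In all, 5 of 8 members were called lower and 0 higher, where 41.4% of mature and 11.2% of all sequences were called lower and 0% and 1.77% higher. The members' median was -2.23, against -1.39 for mature sequences and 0.09 for all. Among 607 mature sequences, 17.8% had a higher value than miR-27b-3p, 50.6% than miR-27a-3p, 70.3% than miR-23b-3p and 87.1% than the 22-nucleotide miR-24-3p.

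These changes depend on how libraries are scaled, because total counts shift the median of all sequences by 0.86. With total counts miR-27b-3p was at 0.78 and 2 of the 8 were called lower. With miRNA sequences only miR-27b-3p was at 1.33 (adjusted p = 0.0179), a call of higher, and 3 of the 8 were called lower. The count was 3 without the first non-oxidized methyltransferase library and 2 without either oxidized methyltransferase library. The calls of the 20- and 22-nucleotide miR-24-3p held without any 1 library, and that of the 22-nucleotide miR-27b-5p was lost without any of 6 libraries. That of miR-23b-3p was lost in 6 of 16 alternatives, with adjusted p up to 0.118. In the authors' deposited table the signed fold of non-oxidized over oxidized methyltransferase RNA was 1.049 for miR-27b-3p, 5.321 for miR-23b-3p, 2.744 for miR-27a-3p and 6.190 to 10.966 for miR-24-3p, with 9.77% of listed sequences called lower on oxidation.

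**Figure D2:**
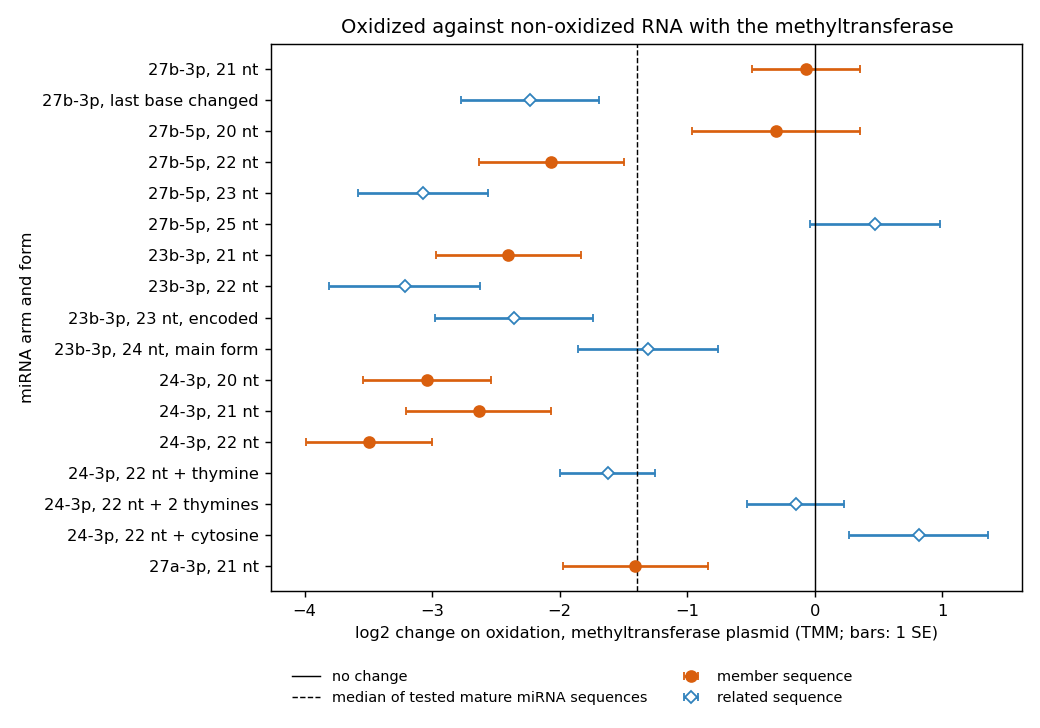
Log2 change from non-oxidized to oxidized RNA with the methyltransferase for the 8 members (filled) and 9 related sequences (open), with bars of 1 SE from the edgeR fit of 2 libraries a group; the dashed line is the median of 607 mature sequences at -1.39. miR-27b-3p lies at -0.07, miR-23b-3p at -2.40 and the miR-24-3p members between -3.50 and -2.63, while miR-24-3p with TT or C and the 25-nucleotide miR-27b-5p lie near or above 0.

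Ratios of counts within a library do not depend on scaling, and they showed the same order. The ratio of miR-27b-3p to miR-23b-3p was 1.46 and 1.12 in non-oxidized control, 1.73 and 1.59 in non-oxidized methyltransferase and 8.94 and 8.03 in oxidized methyltransferase libraries. The ratio of miR-27b-3p to the summed miR-24-3p members was 0.278 and 0.274, then 0.379 and 0.302, then 2.51 and 3.07. These members are a small part of the miR-24-3p arm: with T added it had 2132 and 1205 counts after oxidation, against 304 and 273 for miR-27b-3p. The miR-23b-3p member also held only 28.0% and 27.9% of its arm before and 25.4% and 17.3% after oxidation with the methyltransferase. With related sequences, miR-23b-3p counts equalled 0.0267% and 0.0156% of mature counts before and 0.00655% and 0.0119% after. Those of miR-27b-3p equalled 0.0180% and 0.00906% before and 0.0165% and 0.0186% after.

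The ratio of miR-27b-3p to miR-27a-3p was 4.77 and 5.59 in non-oxidized control, 6.30 and 7.57 in non-oxidized methyltransferase and 21.7 and 14.4 in oxidized methyltransferase libraries. miR-27a-3p could in part be miscalled miR-27b-3p, given the single base between them. Its counts were 15.9% and 13.2% of those of miR-27b-3p in non-oxidized and 4.61% and 6.96% in oxidized methyltransferase RNA. Another single change of the same kind within miR-27b-3p, the sequence with T12C that matches no gene, held 1.72% and 0.472% and then 2.96% and 1.83%. The share of miR-27a-3p that such errors make up was not tested. The ratio of the 3′ member to the summed 5′ members of miR-27b was 4.63 and 5.39 in non-oxidized control, 6.30 and 4.42 in non-oxidized methyltransferase and 15.2 and 10.5 in oxidized methyltransferase libraries. In these libraries the members held 29.9% to 37.1% of the 5′ arm and 57.1% to 89.9% of the 3′ arm. Ratios of whole arms were not computed. For all 4 ratios the oxidized and non-oxidized methyltransferase libraries did not overlap. Each gave p = 0.333 in an exact permutation test (two-sided), the smallest value that 4 libraries in 2 groups allow.

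**Figure D3:**
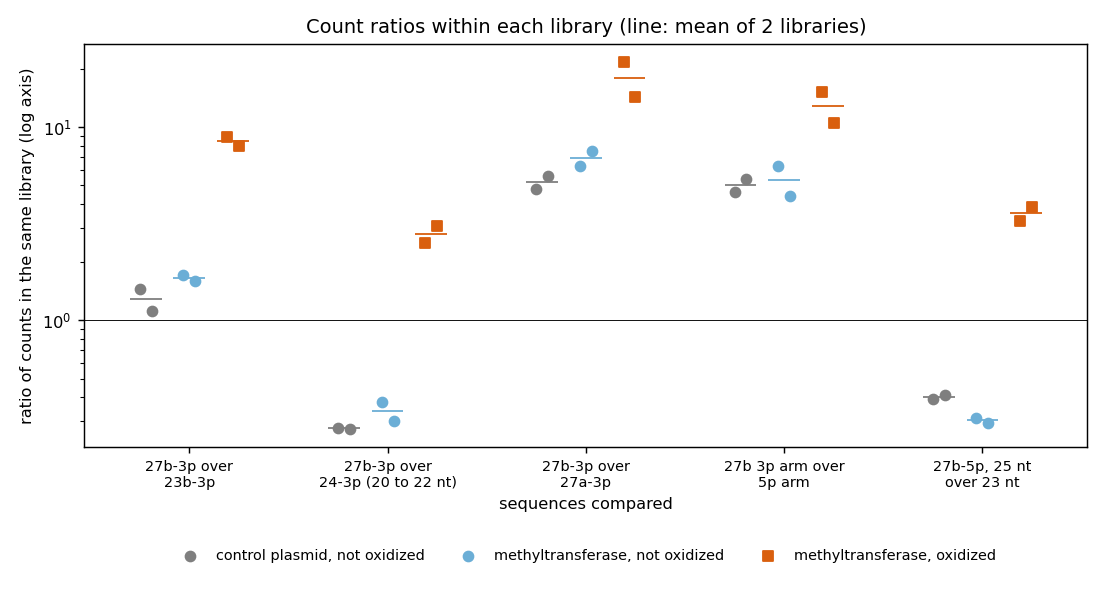
Ratios of counts within each library (log axis) for non-oxidized control, non-oxidized methyltransferase and oxidized methyltransferase RNA; points are libraries, short lines means of 2, and oxidized control libraries are left out because nearly all their counts are 0. Both oxidized methyltransferase libraries lie above the 4 non-oxidized libraries in each ratio. For miR-27b-3p over miR-23b-3p they lie at 8.94 and 8.03 against 1.12 to 1.73. The ratios between miRNAs and between arms use member sequences only.

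As a share of mature counts, miR-27b-3p held 0.0129% and 0.00696% in non-oxidized and 0.0149% and 0.0166% in oxidized methyltransferase RNA. miR-24-3p members held 0.0340% and 0.0231% before and 0.00591% and 0.00542% after, and miR-23b-3p 0.00747% and 0.00436% before and 0.00166% and 0.00207% after. The libraries did not overlap in any of the 3 cases, with miR-27b-3p higher and the other two lower after oxidation (exact permutation p = 0.333 each, the smallest possible).

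The 3′ ends of the reads also differed between the groups. For miR-24-3p the deposited name covers a minority of the reads. The sequence with T alone had 10922 and 11057 counts before oxidation in control cells, or 85.0% and 81.2% of the listed counts of the arm, whereas the 3 members together had 8.28% and 12.1%. In non-oxidized methyltransferase RNA the form with T held 78.0% and 78.3%, and after oxidation 73.8% and 72.2%. The members held 14.3% and 13.0% before and 4.19% and 5.33% after oxidation. Over the same step the form with TT went from 5.12% and 5.40% to 13.3% and 14.1%, and the form with C from 0.393% and 1.13% to 3.74% and 3.83%. The forms with added TT or C thus took up a larger part of the arm in both oxidized libraries, and the 3 members a smaller part.

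In the fit over all sequences, miR-24-3p with T had 4170 and 4236 counts before and 2132 and 1205 after oxidation with the methyltransferase, a log2 change of -1.63 ± 0.37 (SE; edgeR adjusted p = 0.0127), which was not called with total counts or upper quartile scaling or without the first non-oxidized or the second oxidized methyltransferase library. The form with TT had 274 and 292 counts before and 385 and 236 after (-0.15 ± 0.38, adjusted p = 0.847; 0.72 with total counts). The form with C, chosen for mention after its values were seen, had 21 and 61 before and 108 and 64 after (0.81 ± 0.55, adjusted p = 0.388). Each of the 3 had far fewer counts in oxidized control RNA: 2 and 3, 0 and 0, and 0 and 0. Against oxidized control RNA the form with T was higher by a TMM-scaled count ratio of 717 (exact 95% counting interval 307 to 2209). Its fitted log2 difference was 9.35 ± 0.57, or 10.03 without the second oxidized methyltransferase library. The form with TT was at least 105.9-fold and the form with C at least 29.3-fold higher under TMM scaling.

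The same step on all miRNAs of the table gives the background for added bases. Over 276 pairs of a mature sequence and the same sequence with 1 added base, the log2 change on oxidation with the methyltransferase was higher for the longer sequence in 71.4%, with a median difference of 0.77. No sequence is listed with fewer than 2 counts in an oxidized methyltransferase library. Rare longer forms that fell on oxidation are therefore missing, which can raise these differences. By added base the medians were 1.40 for C (47 pairs), 1.19 for A (109), 1.19 for G (31) and 0.08 for T (89). For miR-24-3p the differences from the 22-nucleotide form were 4.31 for C, 3.06 for A and 1.87 for T, and for miR-27b-3p with an added T it was -1.15. Mature sequences that end in G, as the 22-nucleotide miR-24-3p does, had a median change of -2.65 (142 sequences). The medians were -1.40 for those ending in C (90), as 5 members do (the 3′ arms of miR-27b, miR-27a and miR-23b, the 22-nucleotide miR-27b-5p and the 20-nucleotide miR-24-3p), -1.36 for A (116) and -0.96 for T (259).

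**Figure D4:**
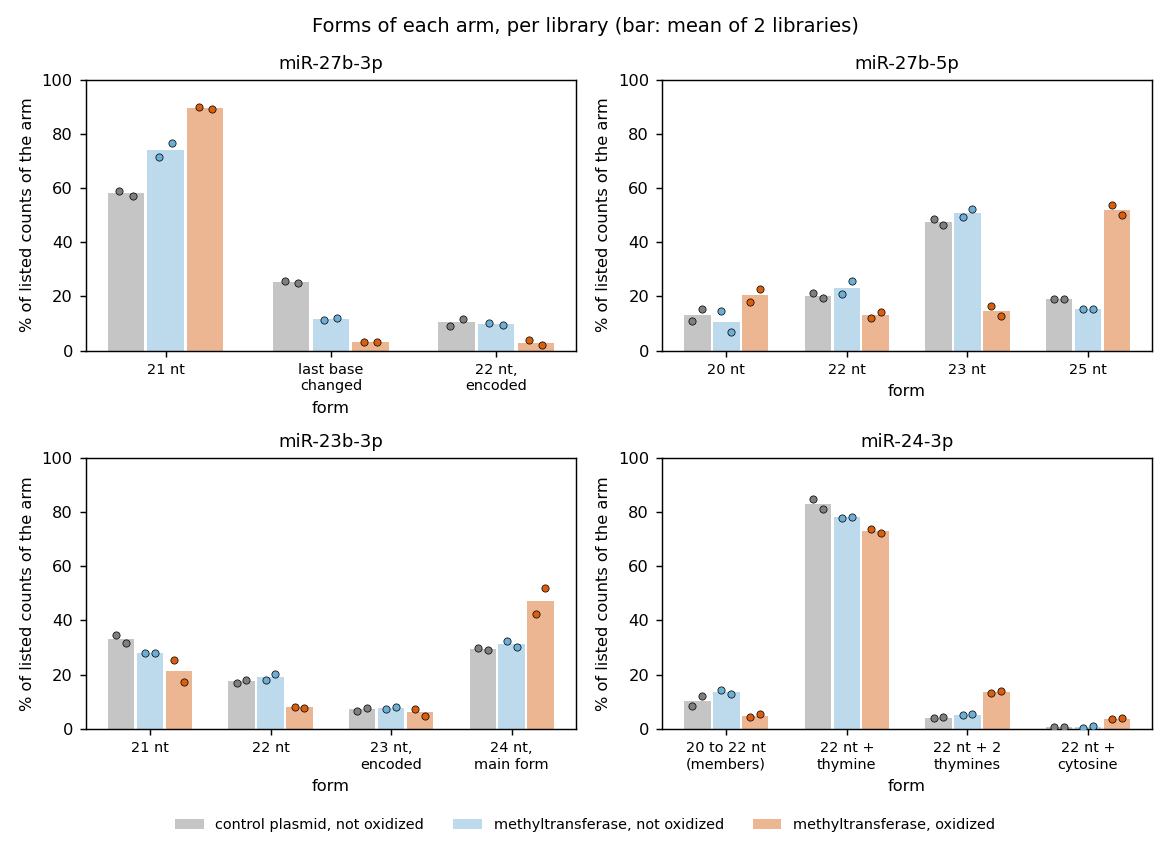
Share of each form in the listed counts of its arm, for miR-27b-3p, miR-27b-5p, miR-23b-3p and miR-24-3p; bars are means of 2 libraries and points the libraries. On oxidation of methyltransferase RNA the 21-nucleotide miR-27b-3p reached 89.9% and 89.2%, the 25-nucleotide miR-27b-5p 53.7% and 50.0%, the main 24-nucleotide miR-23b-3p (with ACT) 42.5% and 52.0%, and miR-24-3p with 2 thymines 13.3% and 14.1%.

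In the miR-27b-3p arm the 21-nucleotide member held a larger share after oxidation, and the encoded 22-nucleotide form with A a smaller one (10.1% and 9.42% before, 3.85% and 1.96% after, with the methyltransferase). The 21-nucleotide member held 59.1% and 57.1% of the arm in non-oxidized control, 71.4% and 76.8% in non-oxidized methyltransferase and 89.9% and 89.2% in oxidized methyltransferase libraries. The sequence with C21T held 25.7% and 25%, then 11.3% and 12%, then 2.96% and 3.27%. Its counts were 129 and 198, then 46 and 33, then 10 and 10, with 0 and 0 in oxidized control RNA. On oxidation with the methyltransferase its log2 change was -2.23 ± 0.54 (SE; edgeR adjusted p = 0.0213), a call that was lost without the first non-oxidized methyltransferase library or either oxidized one. Before oxidation its difference between plasmids was -2.05 ± 0.50 (adjusted p = 0.277). The 3 groups did not overlap for either form, in rising order of share for the member and in falling order for the form with C21T.

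The miR-27b-5p arm had reads of another length in oxidized methyltransferase RNA. The 23-nucleotide form had 64 and 78 counts in non-oxidized and 11 and 9 in oxidized methyltransferase libraries, a log2 change of -3.07 ± 0.51 (SE; edgeR adjusted p = 0.00238). The 25-nucleotide form, which carries 2 more encoded bases and was chosen for mention after its values were seen, had 20 and 23 counts before and 36 and 35 after (0.47 ± 0.51, adjusted p = 0.600). The ratio of the longer to the shorter was 0.392 and 0.411 in non-oxidized control, 0.313 and 0.295 in non-oxidized methyltransferase and 3.27 and 3.89 in oxidized methyltransferase libraries (exact permutation p = 0.333 between the last 2 groups, the smallest possible). The shorter form was the main one of the arm in all 4 non-oxidized libraries and the longer one in both oxidized methyltransferase libraries.

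For miR-23b-3p the forms with A and with ACT differed. The form with ACT had 194 and 144 counts before and 57 and 102 after oxidation with the methyltransferase (-1.31 ± 0.55, edgeR adjusted p = 0.165), while the form with A went from 109 and 97 to 11 and 15 counts, a log2 change of -3.21 ± 0.59 (adjusted p = 0.00437; 0.056 without the first oxidized methyltransferase library). As a share of the arm the form with ACT went from 32.3% and 30.2% to 42.5% and 52.0%, and the form with A from 18.2% and 20.3% to 8.21% and 7.65%. The 21-nucleotide member went from 28.0% and 27.9% to 25.4% and 17.3%.

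Of all 20 related sequences, 16 passed the filter on low counts, and all 16 were called higher in oxidized methyltransferase than in oxidized control RNA and lower on oxidation of control RNA, where 85.3% and 92.8% of mature and 42.3% and 46.4% of all sequences were. On oxidation with the methyltransferase, 3 of 5 hairpin-only sequences, 2 of 10 with added bases and 1 of 1 with a substitution were called lower, beside 41.4% of mature and 11.2% of all sequences. The median changes of the first 2 kinds were -2.36 and -1.26. Passing the filter depends on counts in the groups where a sequence is high, so these counts describe the sequences tested.

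For all 8 members a different effect of oxidation with each plasmid was called (interaction term, edgeR). In the higher direction it was called for 85.7% of mature and 39.6% of all sequences. The listing on oxidized methyltransferase RNA favours such calls. The median fitted interaction was 6.54 on the log2 scale, or 4.52 with members at 0 in oxidized control RNA set to their bound, beside 7.19 for mature sequences. With total counts 5 of 8 were called, and with miRNA sequences only 1 of 8.

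Other miRNAs described in beta cells were also compared. From a list of 21, 18 were in the table and 18 were tested. All 18 were called higher in oxidized methyltransferase than in oxidized control RNA, beside 85.3% of mature and 42.3% of all sequences. The listing favours these calls too. On oxidation with the methyltransferase 12 were called lower and 6 were not called, with a median of -2.31, beside 41.4% and 11.2% called lower. miR-375-3p, the best-known beta cell miRNA, was at -1.39 ± 0.45 (SE; edgeR adjusted p = 0.0676), miR-7a-5p, another islet miRNA, at -1.74 ± 0.40 (0.0133) and the neuronal miR-128-3p at -1.31 ± 0.43 (0.0741). let-7c-5p, of the let-7 family of growth-repressing miRNAs, was at -0.14 ± 0.36 (0.844), near miR-27b-3p. miR-16-5p, known for repressing cell cycle genes, was at -6.75 ± 0.48 (1.19e-05), below every member.

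The miRNAs with the most similar patterns over the 8 libraries differed between the members. Likeness was the root mean square difference of centred log2(CPM + 1) values, among 124 other miRNAs. Nearest to miR-27b-3p were miR-28a-3p (0.43), miR-505-5p (0.52) and miR-672-5p (0.59). Nearest to the 22-nucleotide miR-24-3p were miR-34a-5p (0.34), miR-497a-5p (0.38) and miR-708-5p (0.41). Nearest to miR-23b-3p were miR-374b-5p (0.36), miR-28a-5p (0.42) and miR-378a-3p (0.43), and nearest to miR-27a-3p were miR-325-5p (0.37), miR-30c-5p (0.40) and miR-153-3p (0.47). miR-27b-5p had no neighbour closer than miR-153-3p (0.65). The 5 nearest of miR-27b-3p had no miRNA in common with those of miR-23b-3p or miR-24-3p, while miR-708-5p was among the nearest of both of the latter.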

How the data were processed

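One table was deposited, with the read count of each distinct sequence in each of the 8 libraries per the file headers. QIAseq libraries were made from 5 ng of total RNA, per the labels' protocols. Aligner, build, trimming and use of molecular identifiers are not given in the sources used here. Signed folds (scores, negative where the second group is higher) and adjusted p-values are the authors' own. The authors' normalized signal (counts over a size factor) and regularized log2 values, per the file headers, were not used. Repeated lines of a sequence were merged (12608 lines, 11568 sequences). The model, in edgeR 4.0.16 under R 4.3.3 (TMM, filterByExpr, quasi-likelihood test), took all 8 libraries, with 5 contrasts and Benjamini-Hochberg adjustment over 9851 sequences. The fit was tested on simulated data. Intervals and floors (3 counts) cover counting error only. Positions and mature sequences come from RefSeq (GRCm38.p6) and gene overlaps from GENCODE M21. Alternatives were other scalings and filters, sums by miRNA name, another test (DESeq2 1.42.0), a replicate block and leaving out each library. All members were named; of related sequences the 3 most abundant of each kind were named if they passed the filter, with exceptions stated. Members, lists and tests were chosen with earlier results of these data known.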

Additional observations from a re-analysis of the deposited data

Results flagged for a closer look

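For each member the effect of oxidation differed between the methyltransferase and the control plasmid by an interaction term (edgeR, adjusted p under 0.05), under TMM scaling. The listing on oxidized methyltransferase RNA favours such a difference. The fitted log2 difference was 11.66 for miR-27b-3p, 7.93 for miR-27a-3p, 7.76 and 6.60 for the 20- and 22-nucleotide miR-27b-5p, 5.54 for miR-23b-3p, and 6.03, 3.46 and 6.49 for the 20-, 21- and 22-nucleotide miR-24-3p. The first 4 have 0 counts in oxidized control RNA, so their fitted values depend on the prior count; against 3 counts per library they were at least 150.0-fold, 11.3-fold, 10.05-fold and 4.47-fold. With 1 oxidized control library left out, the fitted value was 4.78 or 8.94 for miR-23b-3p and 5.30 or 8.91, 2.64 or 4.96 and 5.84 or 8.55 for the miR-24-3p members. The 21-nucleotide miR-24-3p was at -0.11 with total counts and at -1.35 with miRNA sequences only.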

How the results depend on the processing

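The limits are 2 libraries a group, a listing selected on oxidized methyltransferase RNA, totals of oxidized control libraries at which 0 counts bound a fold only loosely, and libraries of unequal composition, so that signs near 0 follow the scaling. The count of members called without oxidation was 0 under each alternative. Fitted with miRNA sequences only, 1 member was called higher in oxidized methyltransferase than in oxidized control RNA, 3 lower on oxidation of control RNA, 3 lower with the methyltransferase and 1 in the interaction. Requiring 10 counts in every group left 1 member, called in each of these. Summed by miRNA name, 5, 5, 2 and 5 of 5 miRNAs were called. With total counts 5 were called between the oxidized groups, 2 on oxidation with the methyltransferase (also 2 with the upper quartile) and 5 in the interaction. With 1 library left out 2 to 5 were called on oxidation with the methyltransferase and 8 in the other 3. The cause was not tested, other than the fewer features of the 10-count filter and the sums.

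The labels do not say what a replicate number shares, and this was not tested. Replicate differences correlated at 0.505 between the non-oxidized groups and at 0.161 between non-oxidized control and oxidized methyltransferase RNA. In the other pairs of groups they correlated at -0.011 to 0.090. With a replicate block 8, 0, 8, 5 and 8 members were called in the 5 comparisons, as without it.

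The change in the members' share of mature counts on oxidation with the methyltransferase, -0.0222 percentage points, was -0.0962 with related sequences and -0.0330 to -0.0114 with 1 library left out. The change in the miR-27b ratio of 3′ to 5′ members, 7.49, was 24.5 with the most abundant member of each arm (5.14 to 9.84 leaving out 1 library). That of the 22-nucleotide share of miR-24-3p members, -11.1 points, was -4.42 over the whole arm (-15.3 to -7.00).

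Signs reversed in 33 of 1374 alternatives of single sequences. On oxidation with the methyltransferase, total counts, upper quartile and miRNA sequences only gave 0.78, 0.70 and 1.33 for miR-27b-3p (the last adjusted p = 0.0179), 0.53, 0.46 and 1.08 for the 20-nucleotide miR-27b-5p, and 0.74, 0.64 and 1.25 for let-7c-5p. The first 2 gave 0.72 and 0.63 for miR-24-3p with TT, and the last 0.0089 for miR-375-3p and 0.084 for miR-128-3p. let-7c-5p was at 0.036 with 10 counts in every group. With 1 library left out miR-27b-3p ranged from -0.37 to 0.23 (0.0067 without the second oxidized methyltransferase library), the 20-nucleotide miR-27b-5p from -0.77 to 0.29 (0.0040 without the first), miR-24-3p with TT from -0.38 to 0.20 and let-7c-5p from -0.35 to 0.030. The 21-nucleotide miR-24-3p was at -0.49 with total counts and -1.58 (adjusted p = 0.0489) with miRNA sequences only in oxidized methyltransferase against oxidized control RNA, at 0.11 with miRNA sequences only on oxidation of control RNA, and at -0.11 and -1.35 in the interaction. Without oxidation, miRNA sequences only gave 0.22 for the 22-nucleotide miR-27b-5p (0.030 with total counts), 0.12 for its 23-nucleotide form, 0.046 for miR-23b-3p with A, 0.073 for the 22-nucleotide miR-24-3p and 0.13 for miR-27b-3p. With 1 library left out, miR-23b-3p with A ranged from -1.18 to 0.0047 and with AC from -1.29 to 0.019.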
